A study of Mus musculus with 6 samples.

Results

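The insulin-like growth factor (IGF) genes described here are the ligand gene Igf1, the receptor genes Igf1r and Igf2r, and the binding protein genes Igfbp2, Igfbp3, Igfbp4 and Igfbp5, measured in HDAC1 knockout and wild-type mouse embryonic stem cells. Members were chosen by gene symbol: every probe set whose platform annotation gives 1 of these symbols alone was taken. This found 10 probe sets for 6 of the 7 genes, out of 12422 tested probe sets for 8251 genes. Igf1 had 2 probe sets, Igf1r, Igf2r and Igfbp2 had 1 each, Igfbp3 had 2 and Igfbp4 had 3. The probe set annotated to Igfbp5 also carries the symbol Tmem119, so no value is given for Igfbp5.

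Each genotype had 3 arrays: stem cells derived from HDAC1 knockout embryos were set against stem cells from wild-type embryos. Embryos of both genotypes came from 1 litter, per the series' design text, and no cells were treated. HDAC1 removes acetyl groups from histones as the catalytic subunit of corepressor complexes. The part of the gene that was deleted is not given in the labels. All cells grew in high-glucose medium with 15% fetal calf serum. They had leukemia inhibitory factor on gelatin or feeder cells without it, and the labels do not say which sample had which. The number of lines behind the 3 replicates of a genotype is not given in the labels, so the error behind each p-value is the spread among these arrays and may be technical in part.

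IGF1 and IGF2 are secreted growth factors that signal through the tyrosine kinase IGF1R and from there to the PI3K, AKT and mTOR pathway and the RAS and ERK pathway. IGF2R binds IGF2 and carries it to lysosomes, which removes the ligand, and in most mouse tissues Igf2r is expressed from the maternal copy. The IGF binding proteins hold IGFs outside the cell and are cut by secreted proteases, which frees the ligand.

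Sequences upstream of 3 members are shown because their annotated gene start in RefSeq (GRCm38.p6) is preceded by the motif GGGCGG, the core of the GC box bound by Sp1-type transcription factors. Each is the 250 bases before the start, read 5′ to 3′ on the gene's strand, with the motif on either strand in capitals. The motif occurred 2 times before Igf1r, 3 times before Igf2r, where 2 of the matches adjoin, and 3 times before Igfbp2.
Igf1r, chr7:67952007-67952256, plus strand: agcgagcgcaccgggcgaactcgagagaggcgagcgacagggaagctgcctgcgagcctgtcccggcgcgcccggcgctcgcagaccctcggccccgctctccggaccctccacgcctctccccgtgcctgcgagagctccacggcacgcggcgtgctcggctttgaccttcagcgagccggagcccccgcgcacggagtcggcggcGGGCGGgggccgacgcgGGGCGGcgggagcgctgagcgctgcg
Igf2r, chr17:12769707-12769956, minus strand: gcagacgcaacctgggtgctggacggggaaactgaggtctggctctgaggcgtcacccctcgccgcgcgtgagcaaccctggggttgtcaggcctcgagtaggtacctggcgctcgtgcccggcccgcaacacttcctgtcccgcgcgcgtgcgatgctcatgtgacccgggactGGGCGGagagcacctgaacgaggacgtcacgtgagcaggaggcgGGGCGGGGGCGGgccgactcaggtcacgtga
Igfbp2, chr1:72824230-72824479, plus strand: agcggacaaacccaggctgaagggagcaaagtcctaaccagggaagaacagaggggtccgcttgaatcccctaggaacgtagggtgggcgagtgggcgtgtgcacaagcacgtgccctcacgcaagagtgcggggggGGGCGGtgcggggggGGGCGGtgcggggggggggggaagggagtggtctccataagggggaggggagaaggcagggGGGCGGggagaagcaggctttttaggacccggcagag
The GC content of these windows was 77.6% for Igf1r, 69.2% for Igf2r and 67.2% for Igfbp2, against a median of 52.4% over the 32851 promoter windows in the table. Of all those windows, 32.7% held the motif. All 7 genes had an entry. The windows of Igf1, Igfbp3, Igfbp4 and Igfbp5 and a second window of Igfbp2 had 0 matches, among them windows as GC-rich as that of Igfbp3 at 73.2%. The arrays measure transcripts, so they do not show whether any match is bound. In the same assembly Igfbp2 and Igfbp5 are neighbours among protein-coding genes on chromosome 1, and Igfbp3 neighbours Igfbp1 on chromosome 11, while Igfbp4 lies elsewhere on chromosome 11.

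Hdac1 itself had signals of 118.3, 110.1 and 197.1 on the knockout arrays, against 2323.4, 2199.7 and 2407.8 on the wild-type arrays. The values are MAS5 signal intensities, linear and scaled by the authors so that every array has the same trimmed mean (500.3), and median signals ran from 186.55 to 206.8. A signal of 116.4 was taken as background, the 95th percentile of the signals of 19 bacterial and yeast controls on the arrays. All 10 embryonic stem cell markers listed were measured above background, with Pou5f1 at 10682.3 ± 380.7 (SD, n = 3) in knockout cells and 10009.8 ± 1115 in wild-type cells. Of these 10 markers, 5 were higher in knockout cells and 0 lower by limma, and their summed signal was 65687.8 to 67763 in knockout and 48747.7 to 52380.6 in wild-type cells. Over all genes, by 1 probe set per gene, 4.58% differed in either direction by the same test and threshold. The Y-linked gene Eif2s3y averaged 32.7 ± 23.9 in knockout cells, under background, and 379.3 ± 33.9 in wild-type cells, while the other 8 probe sets of Y-linked genes averaged under background in both genotypes. Any difference in sex chromosomes between knockout and wild-type cells cannot be told apart from genotype here.

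None of the 10 member probe sets was called as different between the genotypes. Calls were made with limma at a Benjamini-Hochberg adjusted p under 0.05 over all tested probe sets, and 3.88% of these passed (279 higher and 203 lower in knockout cells, or 344 and 129 with median centring). At an unadjusted p under 0.05 by limma there were 3 of the 10, for Igfbp2 and the 2 probe sets of Igfbp3, against 15.4% of all tested probe sets. Of the 10, 9 were lower in knockout cells in the fit and 1 was higher, and 55.1% of all tested probe sets were lower. The 9 are not independent, since 2 were of Igf1, 2 of Igfbp3 and 3 of Igfbp4. Among them, 1 probe set of Igf1 and 1 of Igfbp4 were under background on every array, so their direction carries little weight. The median log2 difference, knockout minus wild type on the log2(signal + 16) scale, was -0.20 over the members, or -0.19 with the Igfbp3 probe sets at the bounds that background sets, and -0.04 over all tested probe sets. The arrays of the genotypes did not overlap for 3 of the 10, 1 above and 2 below wild type, and for 20.6% of all tested probe sets.

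**Figure D1:**
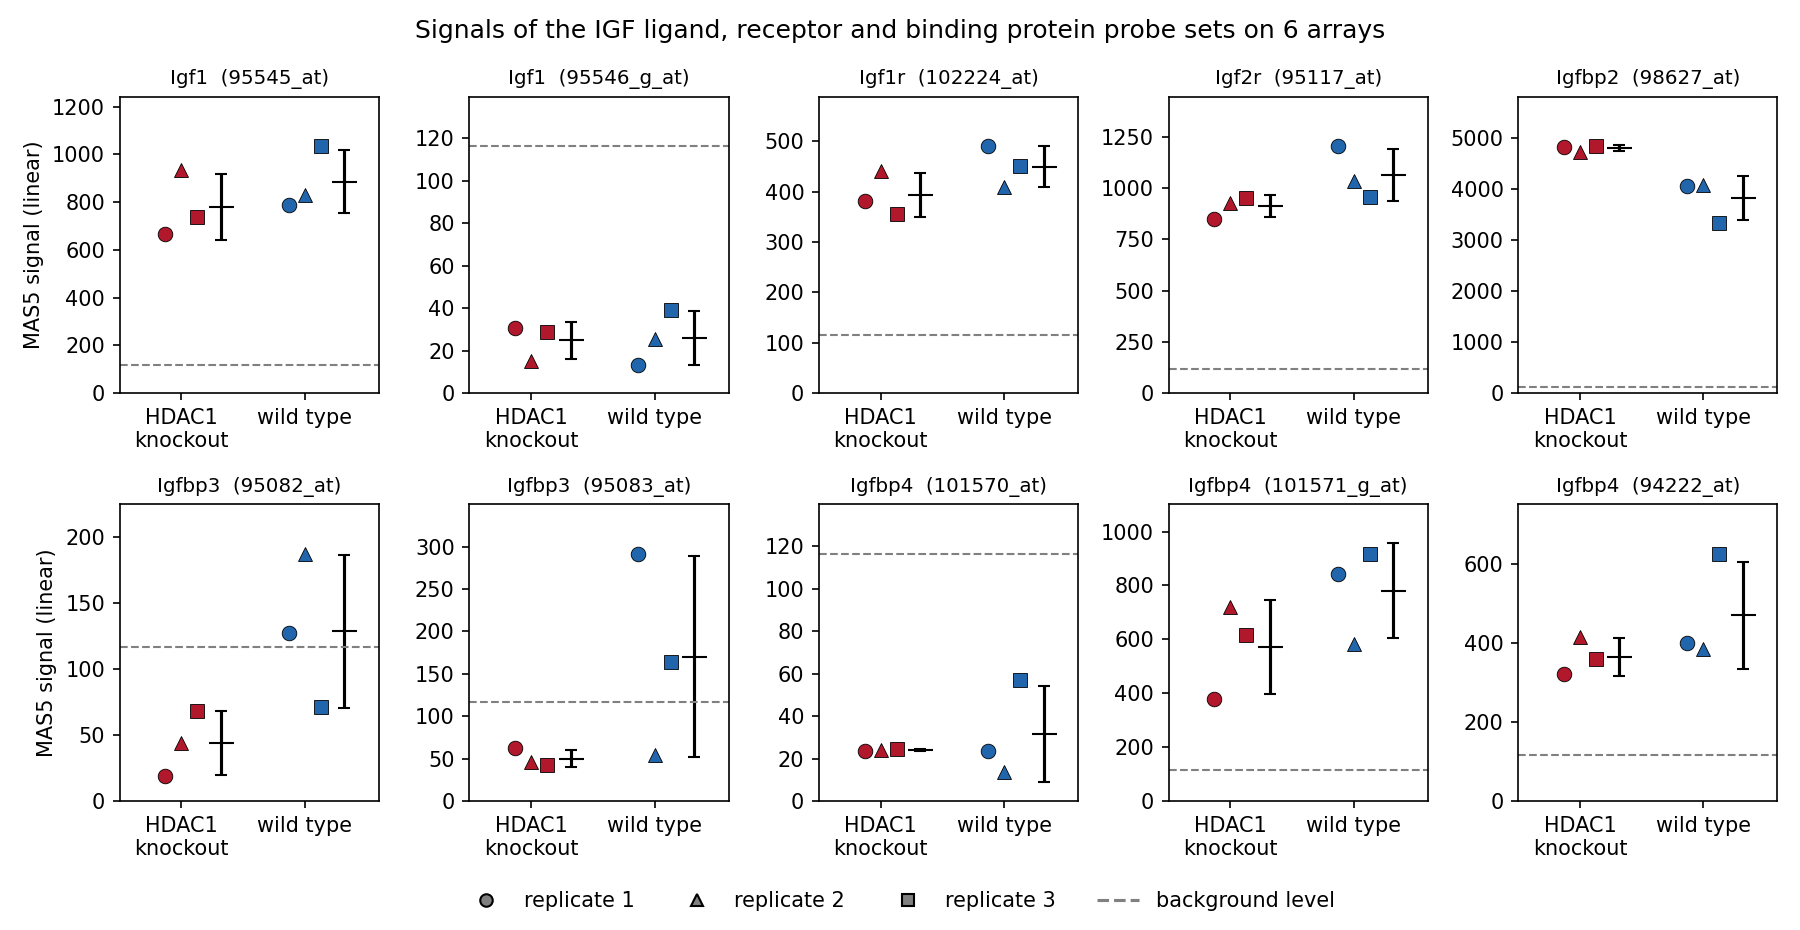
MAS5 signal (linear axis from 0) of each of the 10 member probe sets, with HDAC1 knockout arrays at left in red and wild-type arrays at right in blue. Marker shapes give the replicate number, black bars the mean ± SD of 3 arrays, and the dashed line the background level of 116.4. Igfbp2 is the probe set with all 3 knockout arrays above all 3 wild-type arrays. The second Igf1 and the first Igfbp4 probe sets lie under background throughout.

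Igf1 encodes IGF1, a ligand of IGF1R. Its probe set 95545_at had signals of 665.8, 935.6 and 735.7 in knockout cells, against 788.3, 829.7 and 1034.9 in wild-type cells. The groups overlapped, with the second knockout array above 2 of the wild-type arrays. The mean was 779.0 ± 140.0 in knockout cells and 884.3 ± 132.1 in wild-type cells (SD, n = 3 each), which gave a log2 difference of -0.18 ± 0.15 (SE; adjusted p = 0.657 by limma). Its 95% interval ran from -0.53 to 0.16. The other Igf1 probe set, 95546_g_at, drawn from the same transcript record, was under background on every array, at 30.6, 15.0 and 28.8 in knockout cells and 13.4, 25.3 and 39.2 in wild-type cells. The level of Igf1 in these cells therefore rests on 1 probe set that the other did not match.

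Igf1r encodes the signalling receptor for both IGFs. Its signals were 381.7, 441.1 and 356.2 in knockout cells, against 491.1, 408.6 and 451.0 in wild-type cells. The second knockout array lay above the second wild-type array, so the groups overlapped, and all 6 were well above the background level. Means of 393.0 ± 43.6 in knockout and 450.2 ± 41.3 in wild-type cells gave a log2 difference of -0.19 ± 0.17 (adjusted p = 0.674 by limma). The 95% interval ran from -0.56 to 0.18, and the difference was -0.13 without HDAC1 knockout replicate 3 or without wild type replicate 1 and -0.11 with median centring.

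Igf2r encodes the receptor that clears IGF2. Its signals were 850.8, 929.4 and 954.1 in knockout cells, against 1206.4, 1034.7 and 955.1 in wild-type cells. The groups did not overlap, but the highest knockout array and the lowest wild-type array differed by 1 unit of signal. Means of 911.4 ± 53.9 and 1065.4 ± 128.4 in knockout and wild-type cells gave a log2 difference of -0.22 ± 0.12 (adjusted p = 0.432 by limma), and the 95% interval ran from -0.47 to 0.04. The difference was -0.12 ± 0.12 (SE) without wild type replicate 1 and -0.14 ± 0.12 with median centring. Neither receptor difference was larger than the spread between arrays allowed the test to call. The interval of Igf1r leaves room for modest differences in either direction. That of Igf2r, with all arrays and no centring, leaves room for a modest fall and little room for a rise. Without wild type replicate 1 or with median centring, the smaller difference at a similar SE leaves more room for a rise.

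Igfbp2 encodes a binding protein expressed in many embryonic tissues. It had signals of 4823.5, 4734.5 and 4843.8 in knockout cells, against 4056.1, 4085.1 and 3329.5 in wild-type cells. Every knockout array lay above every wild-type array, and the knockout arrays lay closer together than the wild-type arrays, of which replicate 3 was lowest. The mean was 4800.6 ± 58.1 in knockout cells and 3823.6 ± 428.1 in wild-type cells, a 1.26-fold difference. The log2 difference was 0.33 ± 0.09 with a 95% interval from 0.13 to 0.54, and the adjusted p of 0.0824 by limma missed the threshold. Over 16 other settings the adjusted p ran from 0.0464, without the dimmest 50% of probe sets, to 0.412, by eBayes without a trend, and the log2 difference from 0.24, without wild type replicate 3, to 0.41. Ranked by p among all tested probe sets, Igfbp2 stood at the lowest 5.26%.

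Igfbp3 encodes the main carrier of IGFs in blood and was dim in these cells. Probe set 95082_at had signals of 19.4, 44.2 and 68.1 in knockout cells, against 127.7, 187.2 and 71.4 in wild-type cells. All knockout arrays and the third wild-type array were under background, and the groups did not overlap. Because the knockout level is only bounded by background, the estimate was at least 1.03-fold lower in knockout cells. The difference was not called (fitted log2 difference -1.28 ± 0.51, adjusted p = 0.254 by limma). This bound rests on the background level chosen. With background at the maximum of its control probe sets (146.3), both group means of 95082_at lay under it. The second probe set, 95083_at, had 62.2, 45.7 and 42.7 in knockout cells, against 291.4, 54.9 and 164.0 in wild-type cells. It overlapped between the groups through the second wild-type array, which was under background like all knockout arrays. Its estimate was at least 1.19-fold lower in knockout cells, and it was not called either (fitted log2 difference -1.26 ± 0.55, adjusted p = 0.306 by limma). The wild-type array highest for the first probe set, replicate 2, was the lowest for the second, so the wild-type level of Igfbp3 was not repeated between its probe sets. Without wild type replicate 1 the log2 difference of 95083_at was -0.78, and without wild type replicate 2 it was -1.84.

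Igfbp4 encodes a binding protein that mostly restrains IGF action and is cut by the protease PAPP-A. Probe set 101571_g_at had signals of 377.9, 718.5 and 614.8 in knockout cells, against 841.2, 581.5 and 916.8 in wild-type cells. The first knockout array was well below the other 5, and the second wild-type array lay below 2 knockout arrays. Means of 570.4 ± 174.6 in knockout and 779.8 ± 175.9 in wild-type cells gave a log2 difference of -0.46 ± 0.24 (adjusted p = 0.407 by limma), which was -0.20 without HDAC1 knockout replicate 1. Probe set 94222_at had signals of 320.9, 415.4 and 357.9 in knockout cells, against 399.1, 384.4 and 624.4 in wild-type cells. The third wild-type array stood apart and the other 5 overlapped. Its log2 difference was -0.32 ± 0.21 (adjusted p = 0.547 by limma), and -0.11 without wild type replicate 3. The remaining probe set, 101570_at, was under background on all 6 arrays, at 23.7, 24.0 and 24.6 in knockout cells and 23.5, 13.9 and 57.2 in wild-type cells.

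The order of single arrays was shared by several of these probe sets. HDAC1 knockout replicate 1 was the lowest and wild type replicate 3 the highest of the 6 arrays for Igf1 (95545_at) and for both Igfbp4 probe sets above background, 3 of the 10. The same order held for 4.44% of all tested probe sets. This order was picked after the values of these members were seen, so their count is not independent of that choice. Both Igfbp4 probe sets are of 1 gene, and the order favours probe sets lower in knockout cells. Leaving out wild type replicate 3 gave a log2 difference of -0.07 for Igf1, and leaving out HDAC1 knockout replicate 1 gave -0.08, against -0.18 with all arrays. The opposite held at wild type replicate 3 for Igfbp2, which was lowest there.

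Some markers of feeder fibroblasts, on which part of the cells may have grown, were lower in the same knockout arrays. Of 24 measured, 0 were higher and 5 lower by limma, with a median log2 difference of -0.41, and their summed signal was 12993.3 to 13360.8 in knockout and 17551.6 to 18370.8 in wild-type cells. The 5 were Col1a1, S100a4, Fbln2, Acta2 and Ccn2. Over all genes, by 1 probe set per gene, 4.58% were called in either direction, the share to set beside these marker counts. Col1a1 was at 467.9 ± 17.5 in knockout and 1010.5 ± 106.6 in wild-type cells. Some other bright markers of the list did not fall, among them Col1a2 (log2 difference 0.04) and Fn1 (0.05). Postn, Pdgfrb, Lum and Loxl1 averaged under background in both genotypes. Primitive endoderm markers summed to 6939.3 to 7707.1 in knockout and 5237.5 to 6325.5 in wild-type cells. The 1 of 14 called higher was Lama1, at 1183.6 ± 86.6 in knockout and 496.3 ± 92.7 in wild-type cells. The median log2 difference of the list was 0.16, and Afp, Ttr, Hnf4a and Foxa2 averaged under background in both genotypes. Early mesoderm and ectoderm markers overlapped in sum, at 685.1 to 969.7 in knockout and 643.5 to 785.3 in wild-type cells, with 0 of 7 called. Of these 7, Eomes, Mesp1, Fgf5 and Pax6 averaged under background in both genotypes, which limits what the absence of calls can show. The 3′ to 5′ signal ratio of beta-actin, a measure of RNA quality, was 1.04 to 1.09 on knockout and 1.15 to 1.21 on wild-type arrays, while that of Gapdh overlapped, at 0.769 to 0.804 on knockout and 0.797 to 0.809 on wild-type arrays. The part of any of these in the values of the IGF genes was not tested. In RNA of a whole culture, fewer cells of a type and less RNA per cell cannot be told apart.

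Around the members, the wider IGF and insulin pathway held a ligand and an adaptor that fell (Igf2 and Grb10) and 4 genes that rose (Htra1, Grb2, Pdpk1 and Foxo3). Of 46 listed pathway genes 32 were measured, 22 of them above background, and limma called 4 higher and 2 lower in knockout cells, 18.8% of those measured against 4.58% of all genes by 1 probe set per gene. The list was drawn up with results for Igf2 and Grb10 in these data known, so its count is not independent of them. The median log2 difference was -0.15 over the 32 genes and -0.04 over all genes.

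Igf2, the second IGF ligand and the one cleared by the receptor Igf2r, had signals of 925.1, 738.6 and 719.9 in knockout cells, against 3883.7, 3754.0 and 4101.0 in wild-type cells. It was 4.87-fold lower (log2 difference -2.29 ± 0.11, adjusted p = 1.97e-06 by limma), with all knockout arrays far below all wild-type arrays. Its other probe set was at background in both genotypes, and so was Ins2, an insulin gene.

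Htra1, a secreted serine protease whose substrates include IGF binding proteins, had signals of 1940.6, 1918.0 and 1971.4 in knockout cells, against 508.2, 576.6 and 520.2 in wild-type cells. It rose 3.56-fold (log2 difference 1.83 ± 0.10, adjusted p = 3.89e-06 by limma), and the groups lay far apart compared with their spread. It was the 1 gene called among 6 measured binding proteins and proteases outside the members. Igfbp1 and Igfbp7, further binding proteins, averaged under background in both genotypes. Igfbp6, a binding protein that prefers IGF2 and was chosen after its values were seen, had 361.9, 604.5 and 474.2 in knockout cells, against 702.4, 698.4 and 816.0 in wild-type cells. Its groups did not overlap, but it was not called (log2 difference -0.63 ± 0.18, adjusted p = 0.101 by limma). The array order picked from Igf1 and Igfbp4 had HDAC1 knockout replicate 1 lowest and wild type replicate 3 highest. It held for 4 of 29 pathway probe sets with a mean above background (13.8%), those of Igfbp6, Grb10, Akt1 and Tsc2. Of the 7548 tested probe sets above background, 4.17% had this order. The order favours probe sets lower in knockout cells, as these 4 were in the fit. The pathway list was also drawn up with results for Grb10 known, so the 2 shares are not independent of that. Akt1 and Tsc2 are named for this order alone.

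Both insulin receptor family genes measured, Insr and Insrr, averaged under background in each genotype, though Insr read 164.6 on HDAC1 knockout replicate 3. Of 8 measured adaptors 1 rose and 1 fell. Grb10, an adaptor that binds the activated IGF1 and insulin receptors and restrains their signal, had 99.1, 155.6 and 134.3 in knockout cells, against 867.7, 950.1 and 1085.1 in wild-type cells. It fell 6.82-fold (adjusted p = 3.18e-05 by limma), with 1 knockout array under background. Of its other 2 probe sets, 1 also fell (log2 difference -2.25, adjusted p = 0.00124 by limma), with 2 of 3 knockout arrays under background, and 1 was at background in both genotypes. Grb2, the adaptor that links receptors to RAS, had 843.6, 1183.2 and 965.7 in knockout cells, against 589.0, 659.2 and 708.8 in wild-type cells. It rose 1.51-fold (log2 difference 0.59 ± 0.14, adjusted p = 0.0494 by limma).

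Among 13 measured PI3K, AKT and mTOR genes 2 rose and 0 fell. Pdpk1, the kinase that activates AKT, had 1095.2, 969.1 and 1116.1 in knockout cells, against 740.1, 578.1 and 775.4 in wild-type cells, 1.52-fold higher (adjusted p = 0.0341 by limma). Foxo3, a transcription factor that AKT keeps out of the nucleus, had 1095.3, 937.1 and 955.9 in knockout cells, against 627.3, 627.0 and 761.1 in wild-type cells, 1.47-fold higher (adjusted p = 0.034 by limma). All 3 knockout arrays lay above the wild-type arrays for both genes and for Grb2. A second probe set of Pdpk1 averaged 471.0 ± 73.0 in knockout and 281.3 ± 134.9 in wild-type cells and was not called (adjusted p = 0.207 by limma).

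Of the 6 called pathway genes, Igf2, Htra1 and Grb10 were called under all 16 other settings, Pdpk1 under 10, Foxo3 under 9 and Grb2 under 5. With single arrays left out, Pdpk1 and Foxo3 were called only without wild type replicate 3 (adjusted p up to 0.141 for Pdpk1 and 0.14 for Foxo3 without the others), and Grb2 only without HDAC1 knockout replicate 1 (up to 0.19). The 1 measured gene of the Igf2 mRNA binding group, Igf2bp1, was not called (log2 difference 0.13, adjusted p = 0.657 by limma).

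**Figure D2:**
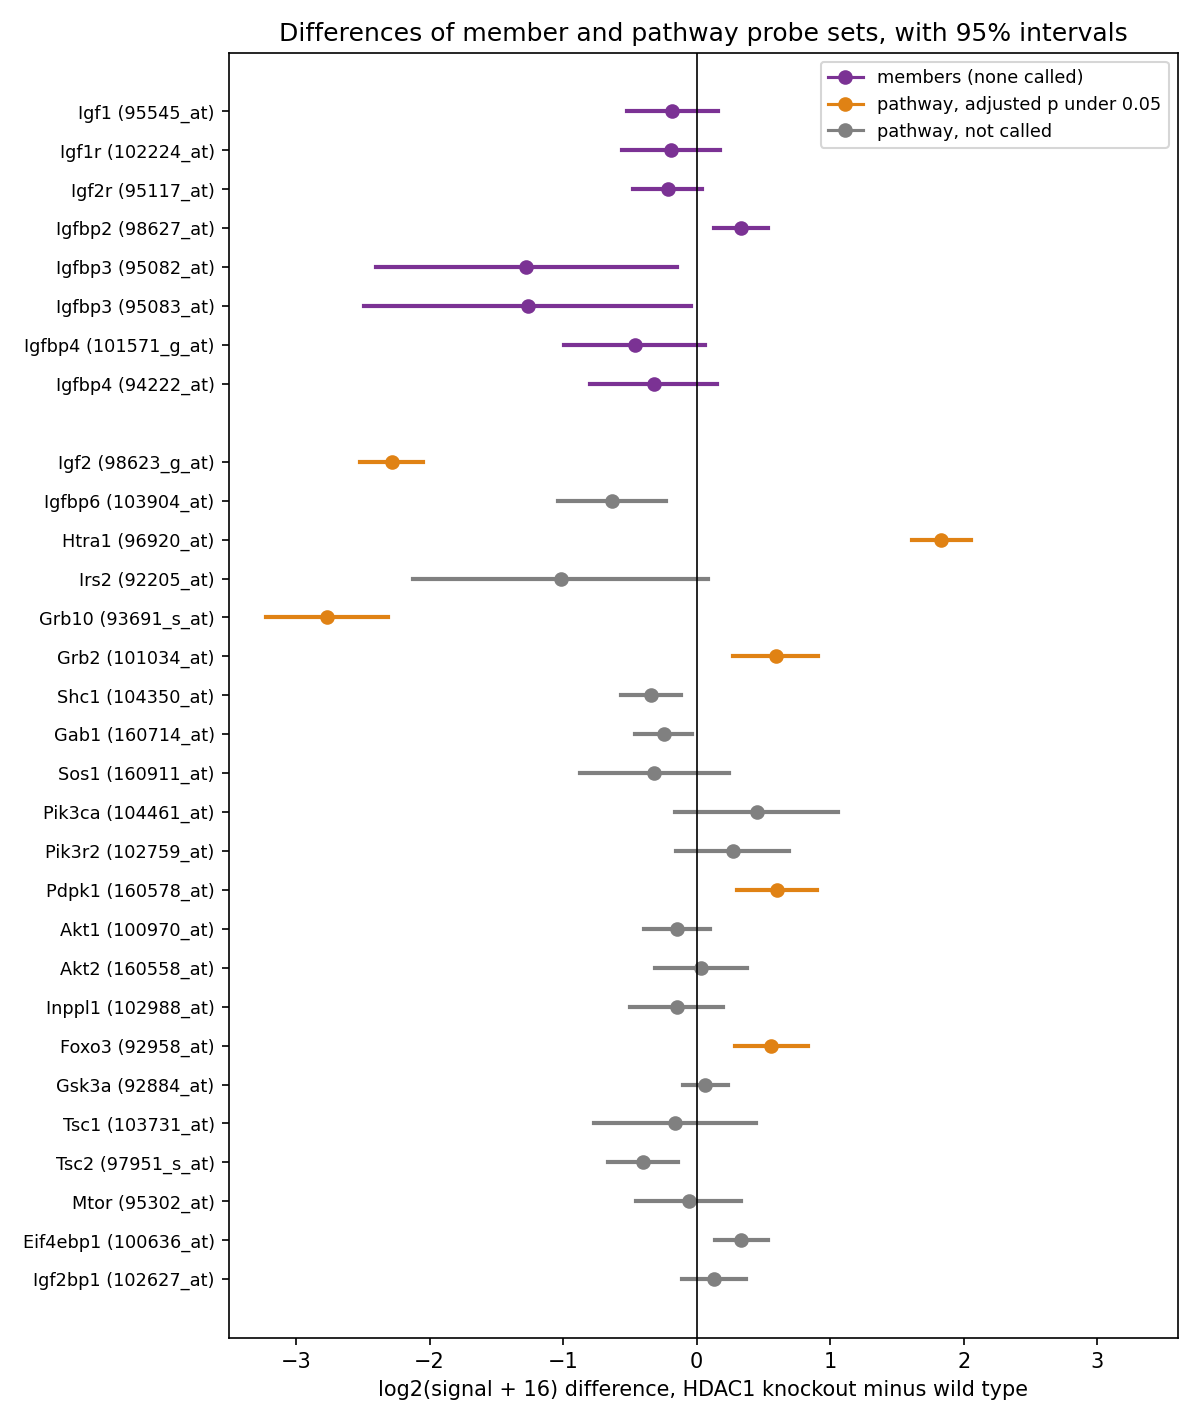
Log2(signal + 16) differences, HDAC1 knockout minus wild type, of the 8 member probe sets above background (purple) and of the 22 measured pathway genes above background (orange where called, grey otherwise). Points are limma estimates and bars their 95% intervals. Igf2 at -2.29, Grb10 at -2.77 and Htra1 at 1.83 lie farthest from 0, and the dim Igfbp3 probe sets have the widest intervals among the members.

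**Figure D3:**
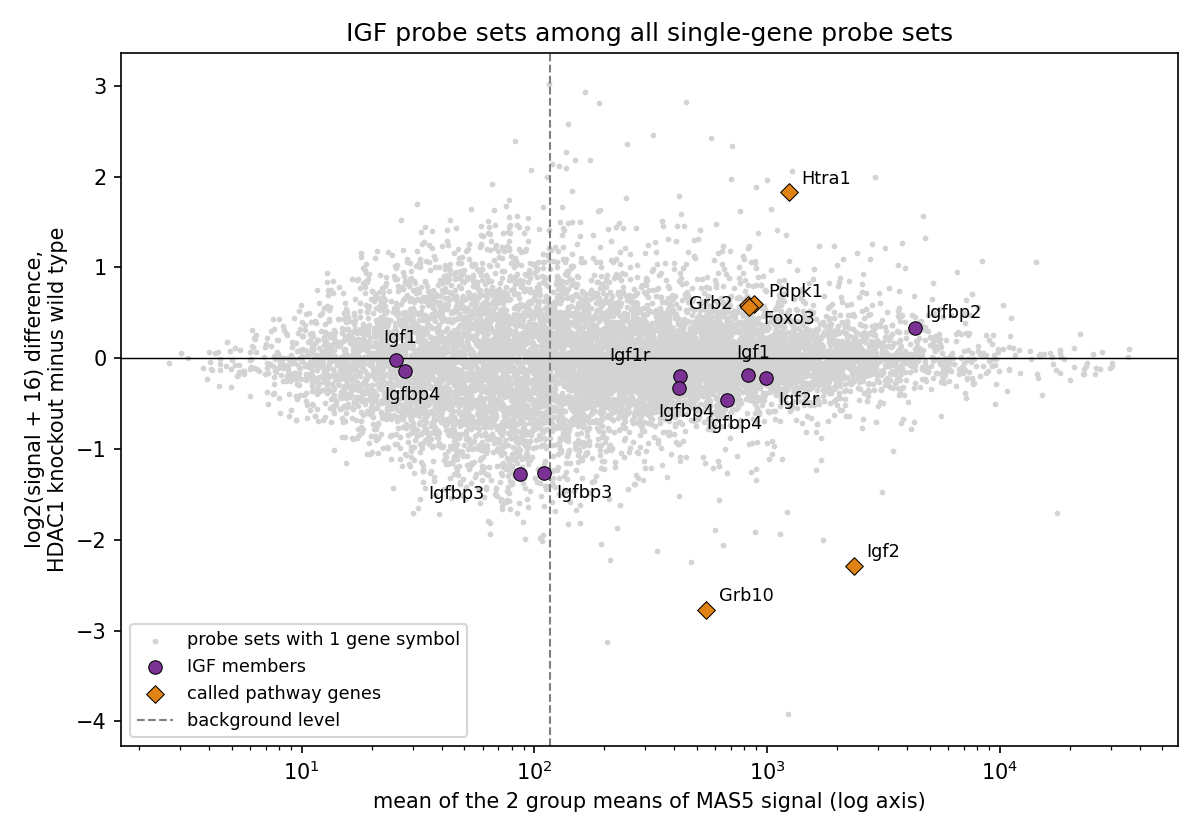
Log2 difference, HDAC1 knockout minus wild type, against the mean of the group mean signals (log axis) for 10833 probe sets with 1 gene symbol (grey), the 10 member probe sets (purple circles) and the 6 called pathway genes (orange diamonds). The dashed line is the background level of 116.4. The members lie among the grey points, with the 2 Igfbp3 probe sets near the background level, and Igf2, Grb10 and Htra1 stand apart from most of them.

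The probe sets most like Igfbp2, the member with the smallest p above background, were sought among 6780 others of single genes with a mean signal above background, by Pearson's r of log2(signal + 16) over the 6 arrays. They were Nid2, a basement membrane protein gene (r = 0.995), Tapbp, which helps to load peptides on MHC class I (r = 0.994), and Dazl, a germ cell RNA-binding protein gene (r = 0.994). These values describe 6 arrays that include both genotypes, so any gene that differs between them can score highly. Nid2 had 942.2, 932.4 and 1060.5 in knockout cells, against 616.4, 616.5 and 376.2 in wild-type cells, and like Igfbp2 was lowest at wild type replicate 3. Of the 3, Nid2 was called (log2 difference 0.88 ± 0.18, adjusted p = 0.0251 by limma). Tapbp (adjusted p = 0.201) and Dazl (adjusted p = 0.126) were not. The other probe sets of Tapbp and Dazl were not called either.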

How the data were processed

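Transcripts were measured in total RNA of 6 samples, each on its own 1-colour Affymetrix MG U74Av2 array. The deposited table holds 1 signal intensity per probe set and array on a linear scale, for which the submitters' processing notes name MAS5. No source used here gives the MAS5 version or detection calls. Trimmed means (2% at each end) differed by less than the 5% allowed, so the deposited intensities were used unscaled. Such scaling hides any shift common to all transcripts. Of 12488 probe sets, 66 controls were left out. Of the 12422 tested, 10833 had 1 platform gene symbol, 396 several and 1193 none; symbols were updated by identifier for the 10817 that matched RefSeq (GRCm38.p6).

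Log2(signal + 16) was fitted over all 6 arrays with limma 3.58.1 in R 4.3.3 (eBayes with a trend, no covariates), as HDAC1 knockout minus wild type, with Benjamini-Hochberg adjustment; this scale understates differences of dim probe sets. Pathway and marker genes were represented by their brightest probe set (mean of 6 arrays). Where the mean, or all arrays, of 1 group lay at or under background, the fold is a lower bound with those arrays set to 116.4; with both groups there, none is given. The number of arrays limits the precision. On data simulated from this comparison (12422 probe sets), 67% of 2-fold and 96% of 4-fold differences of probe sets above background were called in the right direction. The simulated noise was normal and drawn from the variances of the same fit. Differences as small as those of the members other than Igfbp3 were not simulated, so these shares do not describe them. Alternatives were pseudocounts of 1 and 64, scaling, filters on dim probe sets, variance models, array weights, a replicate block, single arrays left out and thresholds.

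Members and lists were chosen with earlier results of these data known. Named genes are all members, Hdac1, every called pathway gene and the 3 probe sets most correlated with Igfbp2, with markers named to describe a list. Outside this rule, Igfbp1, Igfbp6, Igfbp7, Insr, Insrr, Ins2, Igf2bp1, Akt1, Tsc2 and Eif2s3y were chosen after their values were seen. The experiment headers of the arrays were identical and show no batches.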

Additional observations from a re-analysis of the deposited data

How the results depend on the processing

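The sign of all 8 member differences above background was the same under every alternative that could be computed (16 each, 15 for the Igfbp3 probe sets, which the filter at 50% removes). The filters on dim probe sets, the variance models and the replicate block leave the estimate unchanged, so its sign could not change under them. Igfbp2 was the 1 member call in any setting: without the dimmest 50% of probe sets 1 member was higher (log2 difference 0.33, adjusted p = 0.0464), where fewer probe sets were tested, and at an adjusted p under 0.1 also 1. Called pathway genes numbered 4 higher, and 1 by eBayes without a trend or at an adjusted p under 0.01, 2 with the replicate block, and 1 to 3 with single arrays left out. The counts among all 12422 probe sets, 279 higher and 203 lower, became 82 and 50 by eBayes without a trend and 153 and 84 at an adjusted p under 0.01. Lower calls were 129 with median centring, 119 with the replicate block and 311 at an adjusted p under 0.1. With single arrays left out, 150 to 246 were higher and 98 to 174 lower, with fewer samples. The cause of the other changes was not tested. Same-numbered arrays of the genotypes did not deviate together (r = -0.05, -0.01 and -0.08 over 7548 probe sets above background). These values show no pairing by number, but 3 arrays per genotype cannot exclude shared handling. The count of members above background was 8, against 10 with background at the median of its control probe sets and 7 at their maximum. Depth on an array is signal over background, which limits Igfbp3 and leaves 2 probe sets without a fold.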
